A study of Sus scrofa with 2 samples.

Results

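The genes described here make, sense, carry and remove cholesterol: 18 enzymes of cholesterol synthesis, 6 regulators and 9 genes of transport and turnover, 33 in all, chosen by name. Rows were taken where the Ensembl pig gene ID is paired with one of these symbols, which found 28 of the 33 among 25322 IDs. PMVK, MVD, EBP, SREBF1 and LRP1 had no ID in the table paired with their symbol and are not analysed here. Of the 28, 27 had a mean of at least 1 FPKM (sequenced fragments divided by transcript length in kilobases and by library size) over both samples, and ABCA1 lay under that limit. The samples were hippocampus from Rongchang piglets, which the labels give as wild type, 1 control sample and 1 sample from iron dextran treatment. Iron dextran, iron held in a polymer of glucose, is given by injection to prevent anaemia in piglets. The comparison addressed the effect of this treatment on hippocampal gene expression. What dose was given, when tissue was taken and how old the animals were is not given in the sources used here, and each sample's label lists 2 names without saying whether these were animals or libraries. With 1 sample per group there was no spread between replicates, no test was made, and every difference below is between these 2 samples alone.

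The brain makes its own cholesterol, because the lipoproteins of the blood do not cross into it. Acetyl units are joined and reduced to mevalonate, built up to farnesyl diphosphate and squalene, closed into a ring and trimmed to cholesterol, and much of it goes into myelin, the sheath that oligodendrocytes wrap around axons. When sterols in the endoplasmic reticulum run low, SCAP escorts the transcription factor SREBP-2 to the Golgi, where it is cut free to switch on the genes of synthesis, and INSIG1 holds SCAP back when sterols are plentiful. Astrocytes export cholesterol on APOE particles through ABCA1 and ABCG1 under the control of liver X receptors, and neurons remove it mainly by hydroxylation through CYP46A1.

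The column totals were 924070 FPKM for control and 850165 for iron dextran, and 16727 and 16865 IDs were above 0. Low values moved in steps that, read as whole fragments, put the depth of the iron dextran sample at 1.06 times that of control, while the absolute depth is unknown. Of 10 neuronal markers with an ID 9 were measured, with SNAP25 at 1032 and 952 FPKM in the control and the iron dextran sample and STMN2 at 871 and 835. PROX1, a marker of dentate granule cells, was low in both samples (0.761 and 0.858 FPKM).

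Transcripts of cholesterol synthesis enzymes were slightly lower in the iron dextran sample, with DHCR7, FDFT1, FDPS and NSDHL furthest down. Of the 15 enzymes measured, 14 were lower in iron dextran and 1, IDI1, was higher, and 10 of 15 were still lower when both columns were scaled to the same total, where 28% of all genes were. Differences are of log2(FPKM + 1), taken as iron dextran minus control, and their median over the 15 was −0.16, also relative to the median of all genes (−0.0046). Differences ranged from −0.40 for DHCR7 to 0.08 for IDI1. On this scale 4 of the 15 (1 of the 15 with the same column total) were at least 1.2-fold lower, none was 1.2-fold higher and none reached 1.5-fold. Over all 12557 genes with a mean of at least 1 FPKM, 51% were below 0 and 49% above, 8.98% were at least 1.2-fold lower and 12.5% at least 1.2-fold higher, and 1.47% were at least 1.5-fold lower and 2.47% higher. With the same column total 4.77% of all genes were at least 1.2-fold lower. The share below 0 rose with level, and 14 of the 15 enzymes are abundant, so genes with a mean of at least 20 FPKM are the closer background. Of those 4014 genes, 67.6% were below 0, 6.28% were at least 1.2-fold lower, and the median difference was −0.06. The summed level of the 15 enzymes was 1736 FPKM in the control sample and 1546 in the other, a ratio of 0.891. As a share of the column total the sum was 0.188% and 0.182%.

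**Figure D1:**
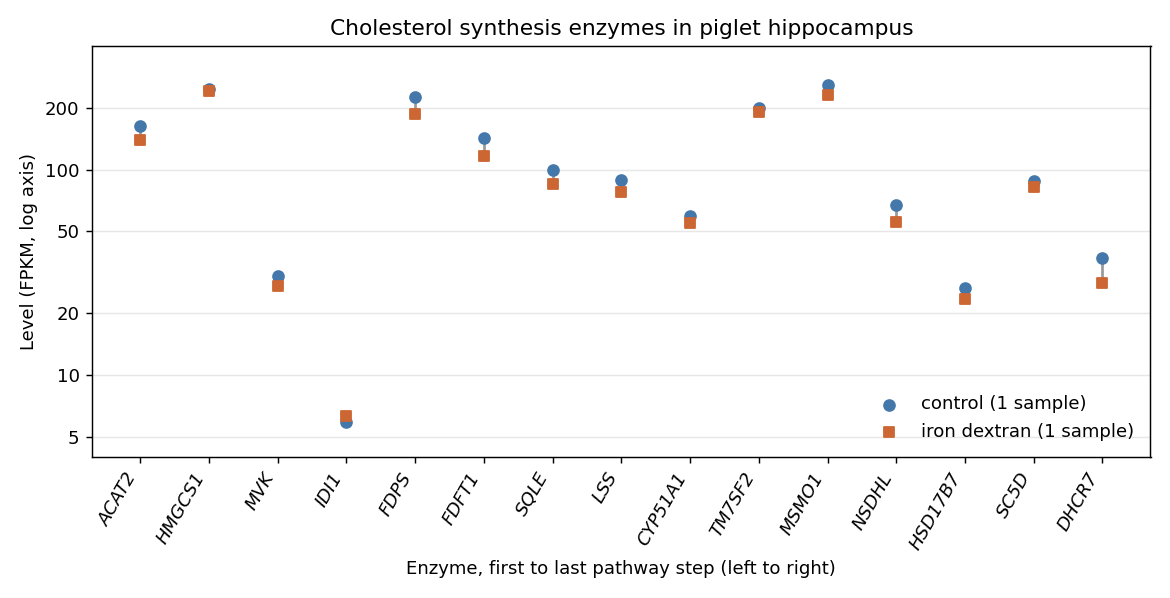
FPKM (log axis) of the 15 cholesterol synthesis enzymes found in the table, in pathway order from left to right, with 1 point for the control sample (circles) and 1 for the iron dextran sample (squares). The circle lies above the square for 14 of the 15 genes, by the widest gap for DHCR7 (37.1 and 27.9 FPKM), and IDI1, near 6 FPKM, is the lowest and the 1 gene with the order turned. With both columns scaled to the same total 10 of the 15 would be lower. The shares beside these counts are 67.6% of genes with a mean of at least 20 FPKM as deposited, and 28% of all genes with the same total.

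Along the first steps, the enzymes differed in size and in one case in direction. ACAT2, the cytosolic thiolase that joins acetyl-CoA units, had 162 FPKM without and 139 with iron dextran, 14.7% lower. HMGCS1, which adds a further unit, had 246 and 242 FPKM, the smallest relative gap of any synthesis enzyme, and it was above 0 (0.09) with the same column total and when set against genes of like level (0.08). MVK, the kinase that phosphorylates mevalonate, had 30.3 and 27.0 FPKM, 10.9% lower. IDI1, which isomerises isopentenyl diphosphate, had 5.94 and 6.33 FPKM, 6.62% higher. Its level was far under those of its neighbours in the pathway in both samples, so that a gap of well under 1 FPKM sets its direction. FDPS, which makes farnesyl diphosphate, the branch point to prenylated proteins, dolichol and ubiquinone, had 226 and 186 FPKM, 17.5% lower. Thus 4 of these 5 listed enzymes were lower, but only FDPS by at least 1.2-fold.

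From the first step committed to sterols onward all 10 measured enzymes were lower as deposited, and 7 of the 10 with the same column total. The shares beside these were 67.6% of genes with a mean of at least 20 FPKM as deposited, and 28% of all genes with the same total. FDFT1, squalene synthase, had 142 and 116 FPKM, 18.2% lower. SQLE, the epoxidase that adds oxygen to squalene, had 99.9 and 84.8 FPKM, 15.2% lower. LSS, which folds the chain into lanosterol, had 88.7 and 78.2 FPKM, 11.9% lower. These 3 consecutive enzymes were among the 7 of the 10 that kept their direction under each of the 3 rescalings of the columns. CYP51A1, the lanosterol demethylase, had 59.3 and 55.0 FPKM, 7.25% lower, and TM7SF2, a sterol reductase, had 200 and 191 FPKM, 4.13% lower. Both stood above 0 with the same column total (0.01 and 0.06), and TM7SF2 also against genes of like level (0.04). MSMO1, the sterol methyl oxidase, was the most abundant synthesis enzyme in control and had 257 and 232 FPKM, 9.78% lower. NSDHL, which acts with MSMO1 in removing methyl groups, had 67.0 and 55.5 FPKM, 17.1% lower. HSD17B7, the ketoreductase of the same complex, had 26.4 and 23.6 FPKM, 10.8% lower. SC5D, the desaturase before the last reduction, had 88.0 and 82.1 FPKM, 6.69% lower, and was above 0 (0.02) with the same column total. DHCR7, the reductase of the last step, had 37.1 and 27.9 FPKM, 24.7% lower. Of these 10 enzymes FDFT1, NSDHL and DHCR7 were at least 1.2-fold lower on the log2(FPKM + 1) scale. The split of the pathway at squalene synthase was made after the values were seen, and the median difference was −0.16 over the 5 enzymes before it and −0.17 over the 10 from it onward.

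Because the treatment supplied iron, the enzymes of the group that hold iron were read separately. CYP51A1 and CYP46A1 carry it in haem, and MSMO1 and SC5D bind it without haem. Their log2 differences were −0.11 for CYP51A1, −0.04 for CYP46A1, −0.15 for MSMO1 and −0.10 for SC5D, a median of −0.10 that was 0.02 with the same column total. None of the 4 was at least 1.2-fold lower or higher. Of the 15 measured synthesis enzymes, the 12 without iron had a median of −0.20 (−0.09 with the same column total). The 4 synthesis enzymes that were at least 1.2-fold lower were all among these 12. When each gene was set against the median of genes of like level, the medians were −0.02 for the 4 iron enzymes and −0.14 for the 12. The sets are unlike, because CYP46A1 is a turnover gene and the 12 are synthesis enzymes only. Against genes of like level CYP46A1 stood at 0.05, and CYP51A1, MSMO1 and SC5D at −0.04, −0.05 and −0.01. Whether iron enzymes differ from the rest could not be tested with 1 sample per group.

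**Figure D2:**
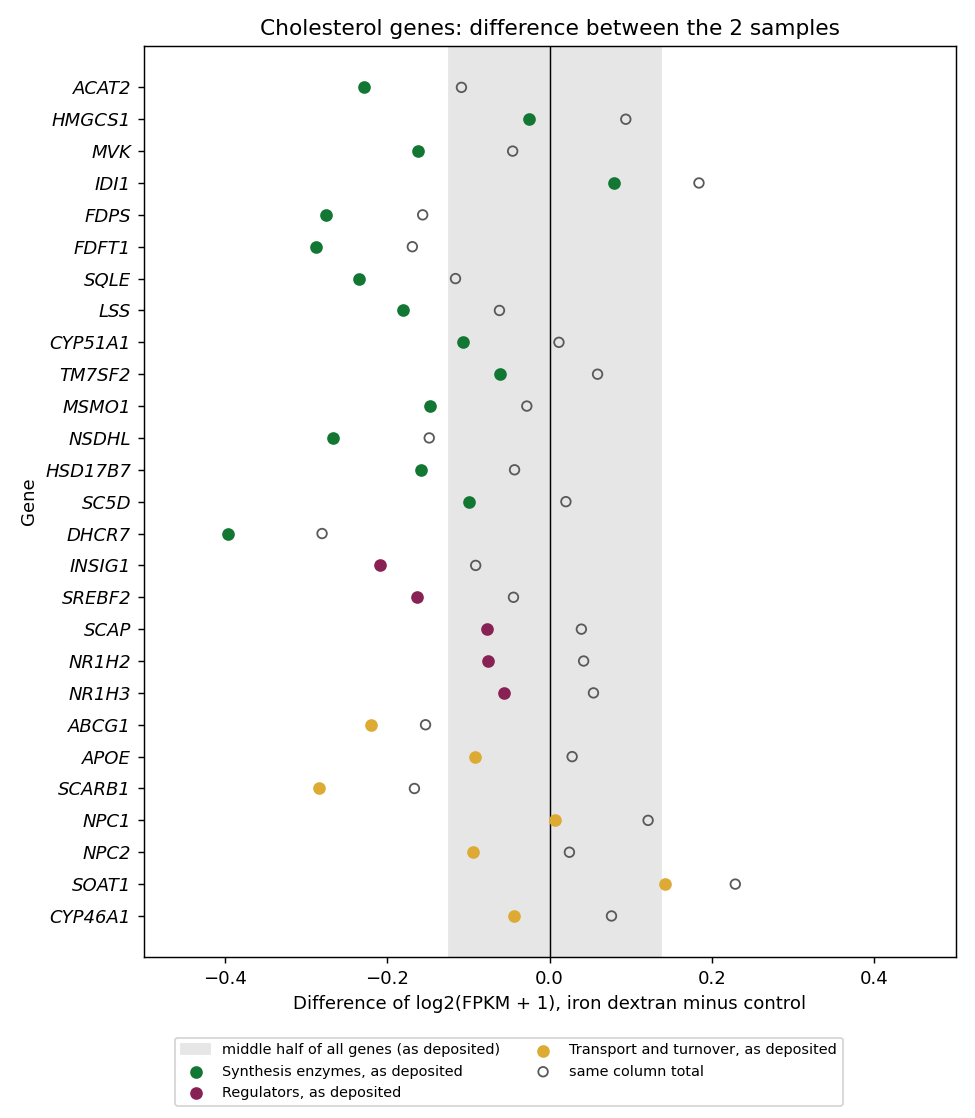
Difference in log2(FPKM + 1) of iron dextran from control for the 27 measured genes, with synthesis enzymes in pathway order at the top, then regulators, then transport and turnover. Filled points are values as deposited, open circles the values after scaling both columns to the same total, and the grey band the quartiles of all 12557 genes (−0.12 to 0.14). As deposited 24 of the 27 points lie below 0, beside 51% of all genes and 67.6% of those with a mean of at least 20 FPKM. With the same column total 10 of the 27 lie on the other side of 0 from where they were.

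Level of expression moved with the difference across the whole table, and this bears on a list made of abundant genes. In the bin of 628 most abundant genes the median difference was −0.10, whereas in the bin of 628 genes just above the limit of 1 FPKM it was 0.07. Differences were therefore also centred on the median of their bin, an alternative added after the data were seen. The synthesis median was then −0.12, with 12 of 15 enzymes below 0, and 1 enzyme, DHCR7, at least 1.2-fold lower. Within its own bin DHCR7 was undercut by 1.28% of genes, NSDHL by 4.46% and FDPS by 4.94%. FDFT1 was undercut by 5.10% of its bin and SQLE by 9.71%. HMGCS1 stood at the other end, with 78.3% of its bin lower, and TM7SF2 had 66.4%. The enzymes were thus spread over both sides of the middle of like genes, with more on the low side.

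**Figure D3:**
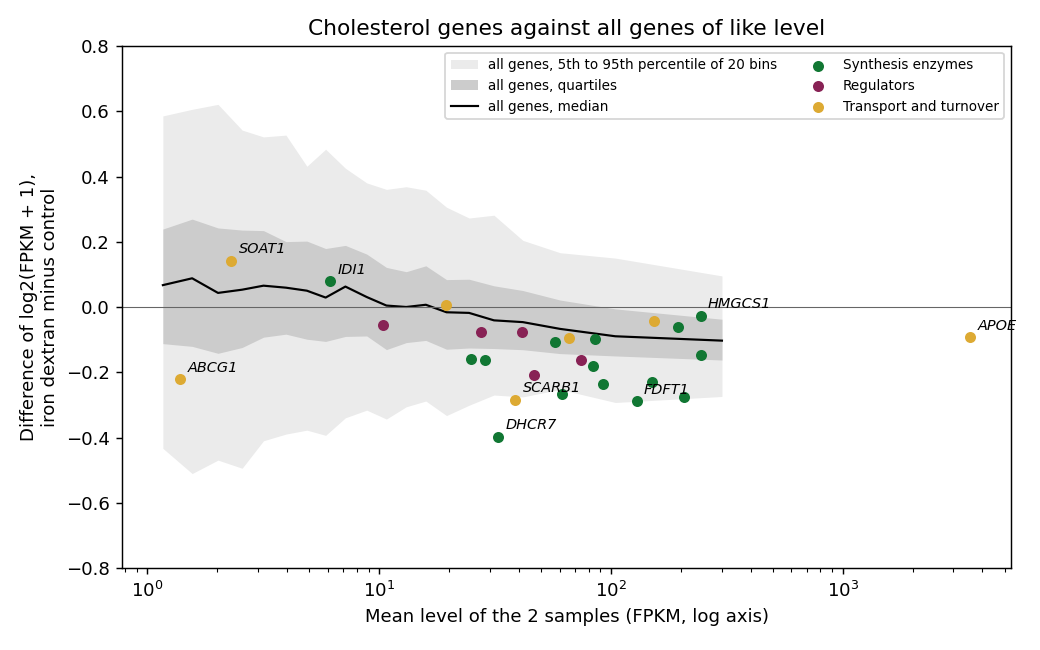
Difference in log2(FPKM + 1) of iron dextran from control against the mean FPKM of both samples (log axis) for the 27 measured cholesterol genes, over all 12557 genes shown as the median (line), quartiles (dark band) and 5th to 95th percentiles (light band) of 20 bins by level. The line slopes from 0.07 in the lowest bin to −0.10 in the highest, drawn to the median level of that bin, 301 FPKM. DHCR7 (−0.40) lies lowest of the 27 and below the light band of its level. NSDHL (−0.27), SCARB1 (−0.28) and, narrowly, FDPS (−0.28) are also under the 5th percentile of their bins.

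The regulators were lower as deposited by small amounts. All 5 measured were below 0, none by 1.2-fold, with a median of −0.08. Of all genes 51% were below 0. Of those with a mean of at least 20 FPKM it was 67.6%, with a median of −0.06. With the same column total only 2 of 5, INSIG1 and SREBF2, were below 0 (28% of all genes), and the median was 0.04. INSIG1, which holds SCAP in the endoplasmic reticulum and is itself a target of SREBP-2, had 49.7 and 42.9 FPKM, 13.7% lower. SREBF2, which encodes SREBP-2, had 78.2 and 69.7 FPKM, 10.8% lower. SCAP, the escort of SREBP-2, had 28.2 and 26.7 FPKM, 5.38% lower. The liver X receptors, nuclear receptors for oxidised sterols, were close to equal in both samples: NR1H2 had 42.3 and 40.1 FPKM and NR1H3 had 10.6 and 10.16. NR1H2 stood at 3.99 times the level of NR1H3 in control and 3.95 times in iron dextran. Set against genes of like level the 5 regulators kept their direction, from −0.03 for NR1H2 to −0.16 for INSIG1.

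Genes of transport and turnover differed in both directions. Of 7 measured, 5 were lower and 2, NPC1 and SOAT1, were higher. By comparison, 51% of all genes and 67.6% of those with a mean of at least 20 FPKM were lower. The median of the 7 was −0.09, 0.03 with the same column total and 0.01 against genes of like level. On the log2(FPKM + 1) scale 1 of the 7, SCARB1, was at least 1.2-fold lower, against 8.98% of all genes. SCARB1, a receptor for high-density lipoprotein, had 42.6 and 34.8 FPKM, 18.3% lower, with 4.46% of genes of like level lower still. Its log2 difference of −0.28 was −0.17 with the same column total and −0.24 against genes of like level, both short of 1.2-fold. APOE, the main apolipoprotein of the brain, was the most abundant of all 27 genes and had 3666 and 3438 FPKM. It was 6.21% lower as deposited and above 0 (0.03) with the same column total. ABCG1, a sterol exporter, had 1.56 and 1.202 FPKM, 23.2% lower, a gap of under 1 FPKM. Its log2 difference of −0.22 was short of 1.2-fold with the pseudocount of 1 but past it with 0.1 (−0.35) and 0.01 (−0.38), and against genes of like level (−0.31). ABCA1, the exporter that loads lipid onto apolipoproteins, was listed at 0.133 FPKM in control and 0.223 in iron dextran. Both ABCA1 values lie under the limit on low values and the depth is unknown, so no direction is read from them. The exporters were thus near the floor of the table in both samples, whereas APOE was at its top.

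Genes of the route out of the lysosome and into storage or removal differed by less than 1.2-fold, in both directions. NPC1, the membrane transporter that takes cholesterol out of late endosomes, had 19.3 and 19.4 FPKM. NPC2, the soluble protein that hands cholesterol to NPC1, had 68.0 and 63.6 FPKM, 6.40% lower, and was above 0 (0.02) with the same column total. SOAT1, which esterifies cholesterol for storage, had 2.14 and 2.46 FPKM, 15.2% higher, the largest difference upward among the 27 (0.14 on the log2 scale). CYP46A1, the hydroxylase of neurons, had 155 and 151 FPKM, 2.97% lower, and above 0 (0.08) with the same column total.

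The order of levels was nearly the same in both samples. APOE came first, and the next 4 genes in both samples were MSMO1, HMGCS1, FDPS and TM7SF2, in a different order. HMGCS1 passed MSMO1 in iron dextran, and TM7SF2 passed FDPS. At the low end NPC1, NR1H3, IDI1, SOAT1 and ABCG1 held the same ranks, from 23 to 27, in both samples.

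Other genes of cholesterol metabolism were counted from lists that do not hold the 33. For these counts, 51% of all genes and 67.6% of those with a mean of at least 20 FPKM were below 0. Of all genes 8.98% were at least 1.2-fold lower and 12.5% at least 1.2-fold higher. The counts of lower regulators and lower transport genes given here are near the shares below 0. Of 13 further genes of synthesis, only 4 had an ID, and 3 of these were lower in iron dextran. CYB5R3, which feeds electrons to the oxidising enzymes, had 99.7 and 85.0 FPKM. ACAT1, the mitochondrial thiolase, had 40.0 and 40.2 FPKM. The median of these 4 was −0.22, and −0.10 with the same column total. Of 6 measured further regulators 4 were lower and 2 higher, none by 1.2-fold, with a median of −0.03 that was 0.08 with the same column total. Among them the retinoid X receptor RXRG had 26.9 and 23.6 FPKM, the ubiquitin ligase MYLIP had 6.61 and 6.99, AUP1 had 88.0 and 83.9, and MBTPS1, the first protease that cuts SREBP, had 20.6 and 19.8. Of 24 measured further genes of transport and turnover 13 were lower and 11 higher, with a median of −0.03 that was 0.09 with the same column total. LCAT, which esterifies cholesterol on lipoproteins, had 14.4 and 9.28 FPKM, and the lipocalin APOD had 277 and 213. STARD5, a sterol carrier, had 1.64 and 2.51 FPKM, and the transporter ABCA5 had 2.08 and 2.68.

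**Figure D4:**
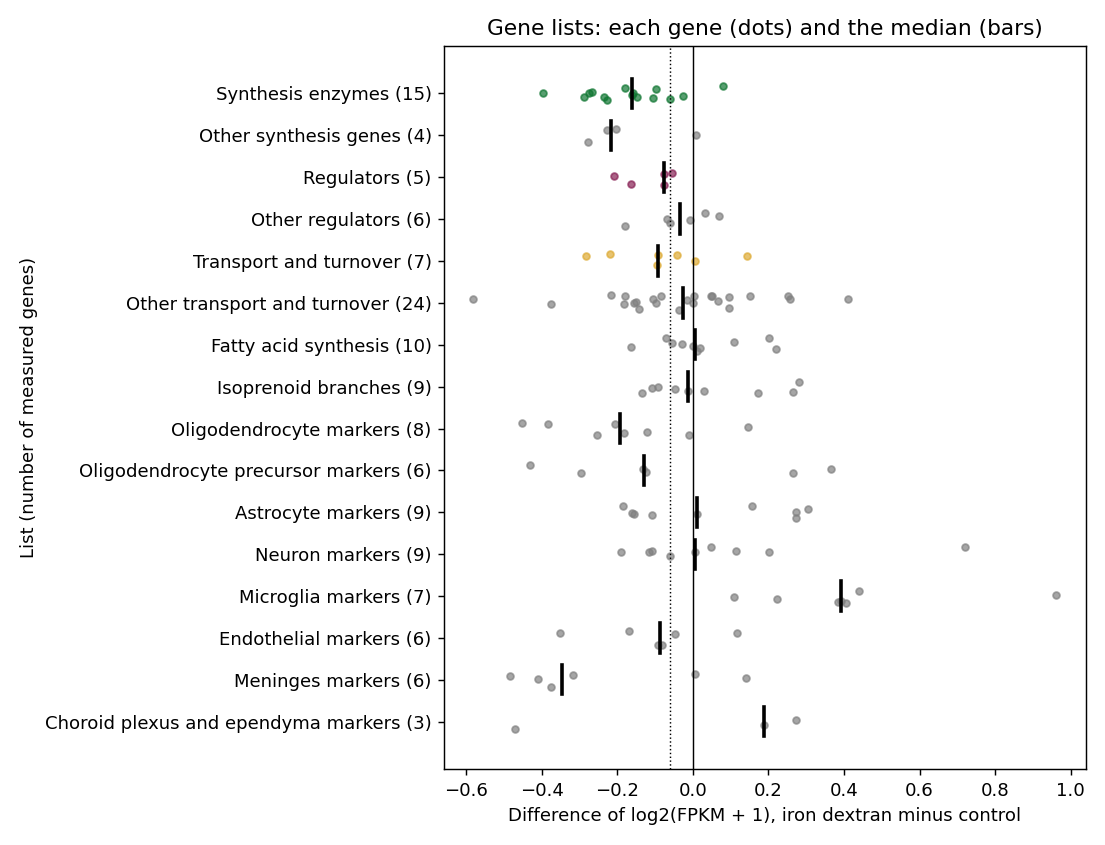
Difference in log2(FPKM + 1) of iron dextran from control for each measured gene (dots, jittered vertically) and the median (bars) of the 3 groups of cholesterol genes, other lipid lists and cell type markers, with the number of measured genes in brackets. The dotted line is the median of genes with a mean of at least 20 FPKM (−0.06). The synthesis enzymes (median −0.16) lie left of 0 like the oligodendrocyte markers (−0.19), while the microglia markers (0.39) lie right of it.

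Oligodendrocyte markers were lower alongside the synthesis enzymes. For the marker counts that follow, 8.98% of all genes were at least 1.2-fold lower and 12.5% at least 1.2-fold higher. Below 0 were 51% of all genes and 67.6% of those with a mean of at least 20 FPKM, and 49% of all genes were above 0. With the same column total 28% of all genes were below 0. Of 14 oligodendrocyte markers 8 were measured, 7 of them lower and 2 by at least 1.2-fold, with a median of −0.19 (−0.09 against genes of like level and −0.07, with 6 of 8 lower, for the same column total). Their sum was 9829 FPKM in the control sample and 8640 in the other, a ratio of 0.879 beside 0.891 for the synthesis enzymes. CLDN11, of myelin's tight junctions, had 1068 and 981 FPKM, and no marker of the list was at 0. In bulk tissue fewer cells of a type and less RNA per cell cannot be told apart. Of 6 measured genes listed as markers of oligodendrocyte precursors 4 were lower and 2 higher (summed ratio 0.797). BCAS1 at 294 and 218 FPKM and OLIG1 at 268 and 219 make up most of that sum, and neither is confined to precursors. The 2 higher ones, PDGFRA (4.54 and 6.13 FPKM) and CSPG4 (1.71 and 2.25), were both at least 1.2-fold higher. Of 6 measured meningeal markers 4 were at least 1.2-fold lower (52.0 and 46.4 FPKM summed), with DCN at 24.2 and 24.3 and COL3A1 at 8.92 and 6.96. Astrocyte markers, whose cells make APOE, had 4 of 9 lower and a median of 0.01 (0.13 with the same column total), with ALDOC at 1547 and 1382 FPKM and GFAP at 1275 and 1145. The other 5 were higher, and 3 of these were at least 1.2-fold higher: SLC1A3 (116 and 143 FPKM), GJA1 (178 and 216) and SLC1A2 (12.8 and 15.7). Neuronal markers had 4 of 9 lower and a median of 0.01 (0.12 with the same column total). Microglia markers were higher in 7 of 7, 5 of them by at least 1.2-fold, with a median of 0.39 (0.35 against genes of like level). Their sum was 116.9 and 150.2 FPKM, with C1QA at 42.3 and 49.5 and TYROBP at 26.5 and 28.6. Endothelial markers had 5 of 6 lower, or 2 of 6 with the same column total (78.5 and 74.1 FPKM summed), with EGFL7 at 47.3 and 45.8 and PECAM1 at 16.9 and 14.9. The part of cell composition in the difference of the synthesis enzymes was not tested.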

How the data were processed

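The authors deposited 1 table of FPKM values per Ensembl pig gene, with 1 column per sample. Columns were matched to samples by the letter shared with the title. The submitters' processing notes name cutadapt 1.2.1, TopHat and the builds Sscrofa10.2 and susScr3. The program behind the FPKM values, the annotation and the use of strand were not given in the sources used here. Symbols came from a table pairing 11804 of the 25322 IDs with names, and no coordinates are given.

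Differences of log2(FPKM + 1), iron dextran minus control, were computed in Python 3.11.15 with pandas 2.3.3 for genes with a mean of at least 1 FPKM. Adding 1 makes differences of low genes look smaller. A gene counted as lower or higher from 1.2-fold, with 1.5-fold as a second limit. With 1 sample per group no test was run. Percentages lower or higher are of the FPKM itself. The code was tested on simulated data.

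Relative depth was read from 690 genes under 0.1 FPKM in control, 53.2% of whose ratios lay within 0.05 log2 units of 1, 2 or 0.5 times a common value. FPKM is relative to library size, and the 10 highest IDs took 36.7% of the column total in control and 34.0% in iron dextran. Alternatives were pseudocounts of 0.1 and 0.01, no filter, a mean of at least 5 FPKM, folds of 1.1 and 1.5, columns scaled to the same total, centred on the median or divided by a TMM factor (a mean of M values with 30% of M and 5% of A dropped at each end), and, added after seeing the data, centring in 20 bins of level.

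All 33 genes are named whatever their values, with up to 4 genes per other lipid list by size of difference and the 2 most abundant of each marker list; some genes this rule takes are not reported here. PROX1, SLC1A3, GJA1, SLC1A2, PDGFRA and CSPG4 were named after their values were seen. The genes and lists were chosen with earlier results of these data known. Promoters and proteins are not shown here.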

Additional observations from a re-analysis of the deposited data

How the results depend on the processing

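With 1 sample per group, no value here has a replicate check. No paired analysis was possible because each group has 1 sample. Scaling both columns to the same total moved the median of all genes from −0.0046 to 0.103 and the split of genes past 1.2-fold from 1127 lower and 1572 higher to 599 and 2786; centring on the median gave 1287 and 1392 and centring by level 1249 and 1309, and a mean of at least 5 FPKM, a smaller set of genes, 625 and 663. The synthesis median was −0.17 with either smaller pseudocount (−0.1667 at 0.1 and −0.1672 at 0.01), −0.18 with columns centred on the median, −0.0455 with the same total and −0.121 by level; relative to the median of all genes it was −0.15 with the same total. The number of synthesis enzymes at least 1.2-fold lower was 1 with the same total and 1 by level; it was 10 at a fold of 1.1 and 0 at 1.5. The regulators' median was −0.0976 centred on the median, −0.0606 by level and turned to 0.0392 with the same total. The median of transport and turnover was −0.11 centred on the median (−0.113) and −0.0679 without a filter, and turned to 0.0278 with the same total and 0.0103 by level. The same total is the scaling that adds to every gene by its construction. Of the 27 genes, 10 changed sign with the same total, 4 by level, 1, NPC1, centred on the median and 0 with TMM. The TMM factor was 0.9997, and with it the synthesis median stayed at −0.16 and 4 enzymes were at least 1.2-fold lower. The absolute depth is unknown, which limits what can be read from ABCA1, ABCG1 and SOAT1.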

Other observations

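Lists of lipid genes next to the cholesterol pathway did not share the low median of the synthesis enzymes. Of all genes 51% were below 0 as deposited and 28% with the same column total. As deposited 8.98% were at least 1.2-fold lower and 12.5% at least 1.2-fold higher. Of 10 measured genes of fatty acid synthesis, many of them targets of SREBP, 5 were lower in iron dextran and 5 higher, none by 1.2-fold, with a median log2 difference of 0.0049; with the same column total it was 0.12, with 1 of the 10 lower. ELOVL5, a fatty acid elongase, had 21.7 FPKM in the control sample and 25.4 in the other, ACSL3, which activates fatty acids, had 67.3 and 77.6, and FASN, fatty acid synthase, had 32.5 and 35.1. FADS1, a desaturase, had 38.7 and 34.4 FPKM.

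Of 9 measured genes that use mevalonate products for other purposes, 5 were lower and 4 higher, beside 51% and 49% of all genes. Their median was −0.01 (0.10 with the same column total). At least 1.2-fold higher were 2 of the 9, beside 12.5% of all genes. PDSS1, which builds the side chain of ubiquinone, had 0.991 and 1.42 FPKM, and PGGT1B, a subunit of a protein prenyltransferase, had 4.55 and 5.67. NUS1, of dolichol synthesis, had 12.1 and 13.8 FPKM, and the prenyl protease RCE1 had 11.2 and 10.1. Of 3 measured markers of choroid plexus and ependyma, TTR had 19.9 and 24.2 FPKM and FOXJ1 had 8.89 and 6.14.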
